A study of Mus musculus with 23 samples.

Results

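Apaf1 and 7 caspases were followed across 5 p53 groups of mouse embryonic fibroblasts, cells grown from embryos that are widely used to study p53 and senescence. The genes were Apaf1, Casp1, Casp2, Casp4, Casp6, Casp8, Casp9 and Casp12, which made 8 of the 18193 genes with a probe set of 1 gene symbol. They were read by 13 of the 45037 probe sets that were not controls. Every probe set with one of these symbols was taken. The group was chosen by measured values: Apaf1 stood higher in the 25,26 arrays than in the WT arrays. That difference is therefore given below as a description with no test, for all 8 genes. Comparisons of 25,26 or WT with other groups share those arrays, so for Apaf1 they are not independent of the choice.

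All 23 samples, 1 array each, were fibroblasts with retroviral H-Ras V12, an oncogene that drives cells with wild-type p53 into premature senescence, and all had received an adenovirus. The 25,26 group (n = 5) had a p53 knock-in allele with a disrupted first transactivation domain, the 53,54 group (n = 3) one with a disrupted second domain, and the QM group (n = 3) one with both disrupted. These alleles lie behind a stop cassette (LSL), and the cells received Adeno-Cre to remove it. The WT group (n = 6) joined 3 arrays of LSL-WT cells with Adeno-Cre and 3 of WT cells with Adeno-Cre. The Null group (n = 6) joined 3 arrays of LSL-WT cells with Adeno-Empty, in which the cassette stays in place, and 3 of p53 null cells with Adeno-Cre. The background was 129/Sv in 4 of the 25,26, 1 of the 53,54, 2 of the QM, 3 of the WT and 4 of the Null arrays, and a mix of 129/Sv and C57BL6 in the others. The Null cells thus lack p53 through different means, and allele number, embryo age and passage are not given in the sources used here.

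Apaf1 encodes the scaffold of the apoptosome: it binds cytochrome c released from mitochondria and assembles into a wheel that activates caspase-9, which in turn cleaves effector caspases. Apaf1 is a known transcriptional target of p53. Caspases are cysteine proteases made as inactive precursors. Caspase-8 starts the death-receptor route, caspase-2 is activated on the PIDDosome, caspase-6 is an effector caspase, and caspases 1, 4 (the mouse caspase-11) and 12 belong to the inflammatory branch. Since caspases act mainly after cleavage, transcript levels give the supply of precursor and not the activity.

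Levels are log2 values of the deposited normalised intensity of a probe set, and a difference of 1 on this scale is a doubling. Differences were tested with limma over 33942 probe sets at once, with Benjamini-Hochberg adjustment over all of them and a threshold of an adjusted p of 0.05. A probe set was tested when at least 3 arrays lay above a log2 level of 4.79, and 11 of the 13 probe sets, covering 7 of the 8 genes, passed this filter. The filtered-out probe sets were the only one for Casp1, with levels from 3.48 to 4.13 over the 23 arrays, and 1458715_at of Casp6, with 4.07 to 4.70. Levels of different probe sets are not comparable with each other. Array medians lay between 59.7 and 63.95 on the linear scale, and the number of arrays per group limits the precision. The design text calls the arrays biological samples without saying that each came from its own embryo, so the p-values measure the spread between these samples. All 9 fibroblast markers were above the filter level on average. Of these Col3a1, Pdgfra and Pdgfrb were lower in WT than in Null. For other cell types the linear intensities of the markers were summed and taken to log2, so the brightest markers weigh most. This sum over 10 macrophage and leukocyte markers ran from 9.12 to 9.43 in Null, 9.08 to 9.41 in QM, 9.40 to 9.70 in 25,26, 9.91 to 10.1 in 53,54 and 9.10 to 9.99 in WT. Of the 7 tested, Cd68 was higher than in Null in WT (6.55 ± 0.66 in Null and 7.80 ± 0.61 in WT, n = 6 each), and Cd68 (8.41 ± 0.23, n = 3) and Cd14 were higher in 53,54, while none was called in 25,26 or QM. The log2 of the summed intensity of 7 epithelial markers, of which Krt18 and Krt19 were higher in WT, ran from 10.89 to 12.08 in Null, 11.76 to 12.23 in QM, 11.72 to 12.85 in 25,26, 12.29 to 12.67 in 53,54 and 11.99 to 12.76 in WT. None of the endothelial markers was called in WT, 25,26 or 53,54 against Null. The part of these shifts in the results below was not tested, and in bulk RNA a change in cell makeup and a change per cell cannot be told apart.

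The titles carry a replicate number, and arrays with equal numbers deviated together from their group. Such pairs correlated at 0.19 or above in each comparison checked, so fits with the number as a block are given where they change a call. The genotype label of WT replicate 6 reads LSL-WT while its title reads WT, and that of Null replicate 6 adds knock-in to null. The titles set the groups and parts used here. Without WT replicate 6, WT minus Null was 0.77 and 0.89 for Apaf1 and -0.96 for Casp2 (adjusted p from 0.00029 to 0.000862). The transcript of p53 itself is not analysed here.

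Apaf1 rose against Null in WT, 25,26 and 53,54, on both of its probe sets. On probe set 1452870_at its log2 level in the 6 Null arrays was lowest at 9.02, with a median of 9.34 and a highest of 9.62. The 3 QM arrays stood at 9.82, 9.60 and 10.07, and the 5 arrays of 25,26 at 10.49, 10.64, 10.93, 10.75 and 10.81. The 3 arrays of 53,54 had 10.58, 10.83 and 10.79. Both single-domain mutants therefore lay above every Null and every QM array. The WT arrays fell into their parts, with 10.19, 10.48 and 10.42 in LSL-WT with Adeno-Cre and 9.60, 9.85 and 10.01 in WT with Adeno-Cre. All 3 values of the first part were above all 3 of the second, and the lowest WT array lay within the Null range.

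**Figure D1:**
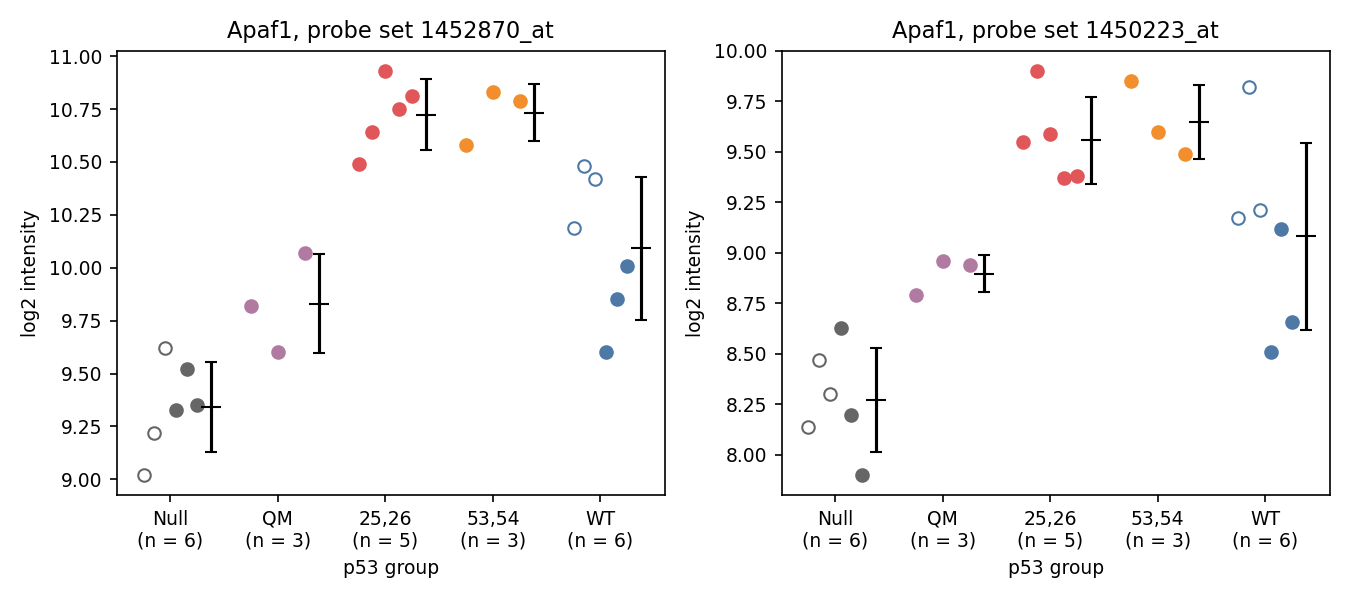
Log2 intensity of the 2 Apaf1 probe sets in each array, by p53 group. Open circles are LSL-WT cells (with Adeno-Empty under Null and with Adeno-Cre under WT), filled circles are all other arrays, and black bars give the group mean ± SD; the arrays of 25,26 and 53,54 all lie above the Null arrays on both probe sets.

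The group means of this probe set were 9.34 ± 0.21 (SD, n = 6) in Null, 9.83 ± 0.24 (n = 3) in QM, 10.09 ± 0.34 (n = 6) in WT, 10.72 ± 0.17 (n = 5) in 25,26 and 10.73 ± 0.14 (n = 3) in 53,54. The last 2 of this order did not differ beyond their spread, with 25,26 minus 53,54 at -0.01 ± 0.17 (SE) and a 95% interval from -0.37 to 0.35 (limma adjusted p = 0.995). QM and WT likewise overlapped, with QM minus WT at -0.26 ± 0.17 (adjusted p = 0.443).

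The second probe set, 1450223_at, gave the same order of groups. It had a lowest level of 7.9, a median of 8.25 and a highest of 8.63 in Null, and 8.79, 8.96 and 8.94 in QM. In 25,26 it read 9.55, 9.90, 9.59, 9.37 and 9.38, and in 53,54 it read 9.85, 9.60 and 9.49. In WT it read 9.17, 9.82 and 9.21 for LSL-WT and 8.51, 9.12 and 8.66 for WT with Adeno-Cre. Across the 23 arrays the probe sets correlated at 0.89, and after the mean of each allele-and-virus subgroup was removed at 0.07. The array of title number 2 was the highest of its subgroup in 7 of 7 subgroups on 1450223_at and in 1 of 7 on 1452870_at. The probe sets thus agreed between groups and not within them.

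Against Null, Apaf1 rose in WT by 0.75 ± 0.14 on 1452870_at (1.68-fold, adjusted p = 0.000471) and by 0.81 ± 0.17 on 1450223_at (adjusted p = 0.00155). It rose in 25,26 by 1.38 ± 0.14 (2.60-fold, adjusted p = 3.31e-06) and 1.28 ± 0.18 (adjusted p = 0.000124). In 53,54 it rose by 1.39 ± 0.17 (2.62-fold, adjusted p = 5.48e-06) and 1.37 ± 0.21 (adjusted p = 6.42e-05). The levels of Apaf1 in 25,26 and WT chose the genes, so the adjusted p-values of those groups are not independent of the choice. In QM the differences were 0.49 ± 0.17 and 0.62 ± 0.21, with 95% intervals from 0.14 to 0.83 and from 0.20 to 1.05, and an adjusted p of 1 for both. QM did not overlap Null on 1450223_at, and neither probe set passed.

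The promoter window of Apaf1 is shown because the level of this gene chose the set. RefSeq places it on GRCm38.p6 at chr10:91082694-91082993, minus strand, from 250 bases before to 50 after the start of the gene.
Apaf1: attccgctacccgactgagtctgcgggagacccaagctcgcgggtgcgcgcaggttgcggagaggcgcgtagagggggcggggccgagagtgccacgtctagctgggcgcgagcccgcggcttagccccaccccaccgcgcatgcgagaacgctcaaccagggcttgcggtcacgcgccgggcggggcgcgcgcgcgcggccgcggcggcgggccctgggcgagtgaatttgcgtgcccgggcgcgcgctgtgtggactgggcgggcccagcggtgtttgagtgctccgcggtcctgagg
It is 74.7% G and C. A p53 half-site, searched by its consensus on both strands, was not matched in these letters, and 8.36% of all 32544 promoter windows of this length hold a match. Nor was the CCAAT box, spelled CCAAT on one strand and ATTGG on the other, which 37.4% of windows hold.

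The contrast that chose the genes, 25,26 with WT, is described without a test. Apaf1 was higher in 25,26 by 0.63 ± 0.14 on 1452870_at and by 0.48 ± 0.18 on 1450223_at. Every 25,26 array was above every WT array on the first probe set. The second probe set overlapped, since WT replicate 2 reached 9.82. The size of the difference depended on the WT arrays used: against LSL-WT with Adeno-Cre alone it was 0.36 and 0.16, and against WT with Adeno-Cre alone 0.90 and 0.79. Casp2 was also higher in 25,26, by 0.64 ± 0.16, and again less so against LSL-WT (0.31) than against WT with Adeno-Cre (0.97). Casp6, on its tested probe set, differed by 0.33 ± 0.12, Casp8 by -0.34 ± 0.15 and Casp4 by -0.29 ± 0.36. The Casp9 probe sets differed by 0.11 ± 0.19, 0.03 ± 0.08 and -0.01 ± 0.14, and those of Casp12 by -0.10 ± 0.36 and 0.07 ± 0.39. Casp1, below the filter level, had means of 3.93 in 25,26 and 3.74 in WT. The choice did not use the 53,54 arrays, but it used the WT arrays. The comparison of 53,54 with WT is therefore not independent of the choice either. The Apaf1 difference of 53,54 from WT was 0.64 ± 0.17 on 1452870_at (adjusted p = 0.179), with no overlap of the arrays. On 1450223_at it was 0.56 ± 0.21 (adjusted p = 0.563). No tested member passed in that comparison, in which 0.194% of all probe sets were called. Without WT replicate 2 the difference on 1452870_at was 0.72 (adjusted p = 0.0462), with array weights 0.65 (adjusted p = 0.00926), and with WT with Adeno-Cre alone as WT it was 0.91 (adjusted p = 0.00614) and 0.88 (adjusted p = 0.0193). With LSL-WT with Adeno-Cre alone as WT the difference was 0.37 on 1452870_at and 0.25 on 1450223_at, and no tested member passed.

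Apaf1 also stood above QM in 25,26, by 0.89 ± 0.17 on 1452870_at (1.86-fold, adjusted p = 0.0183) and 0.66 ± 0.21 on 1450223_at (adjusted p = 0.30, or 0.0267 with the replicate number as a block). The groups did not overlap on either probe set. This made 1 called member probe set of 11, against 0.38% of all probe sets, and 2 against 2.14% with the block. These were all of Apaf1, whose level in the 25,26 arrays chose the genes, so the counts are not independent of the choice. The call on 1452870_at ended without 25,26 replicate 3 (0.84, adjusted p = 0.0652), QM replicate 1 (0.89, adjusted p = 0.111) or QM replicate 2 (0.78, adjusted p = 0.205). It also ended without the arrays of title number 2 (0.80, adjusted p = 0.247), a setting chosen after seeing the data.

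The WT comparison holds separate parts that share no array. In LSL-WT cells, Adeno-Cre against Adeno-Empty asks what restoring the allele does (n = 3 and 3). Apaf1 rose there by 1.08 ± 0.16 on 1452870_at (2.11-fold, adjusted p = 0.000229) and 1.09 ± 0.20 on 1450223_at (adjusted p = 0.00172), with no overlap. In cells with constitutive WT p53 against null cells, both with Adeno-Cre, the differences were 0.42 ± 0.16 (adjusted p = 0.0912) and 0.52 ± 0.20 (adjusted p = 0.103). Both passed with the block, at 0.51 (adjusted p = 0.00229) and 0.48 (adjusted p = 0.00365), though only 2 pairs share a number here. Median centring also gave a call on 1452870_at (0.48, adjusted p = 0.0471). On 1450223_at calls came with array weights (0.55, adjusted p = 0.0138), without the arrays of title number 2 (0.54, adjusted p = 0.0259) and without Null replicate 4 (0.72, adjusted p = 0.0374). Without WT replicate 6 the differences were 0.33 (adjusted p = 0.252) and 0.58 (adjusted p = 0.114). Xist, transcribed from the inactive X chromosome, lay between 11.47 and 11.86 in these WT arrays and between 5.72 and 6.81 in these Null arrays. Sex and p53 cannot be told apart within these arrays. With the Xist level as a covariate, fitted over all 23 arrays, the Apaf1 differences were 0.45 (adjusted p = 0.182) and 0.33 (adjusted p = 0.457).

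The difference between the parts for Apaf1 was -0.66 ± 0.22 on 1452870_at (adjusted p = 0.26) and -0.57 ± 0.29 on 1450223_at (adjusted p = 0.522). With the block it was -0.57 (adjusted p = 0.0388) and -0.61 (adjusted p = 0.0335). The larger Apaf1 difference in LSL-WT cells thus passed only with the block, which called 3.97% of all probe sets, against 0.0206% without it. Of the 11 member probe sets, 3 were called in the LSL-WT part (8.29% of all probe sets) and 1 in the other part (12.5% of all). None was called for the difference, against 7 probe sets of all.

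**Figure D2:**
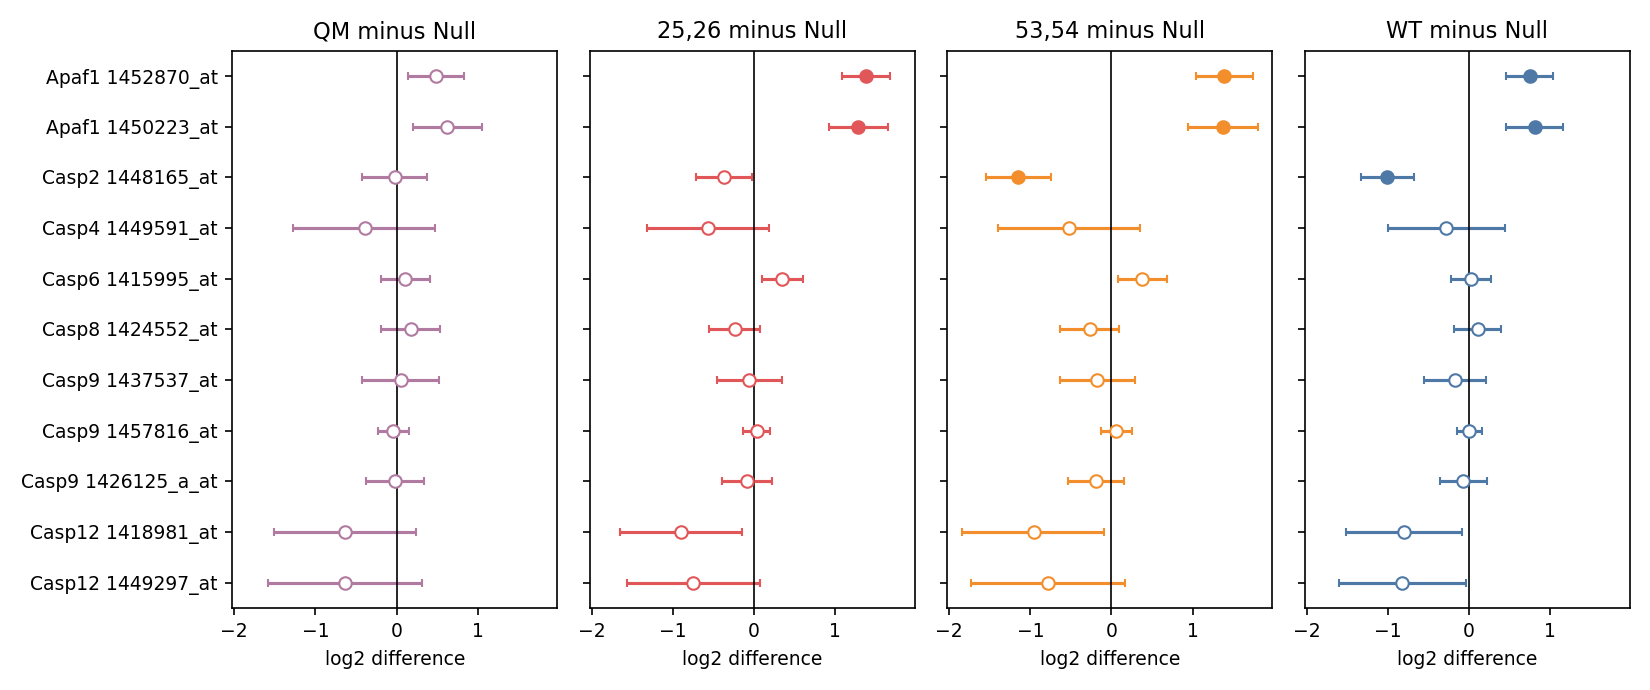
Log2 difference from Null of the 11 tested member probe sets in QM, 25,26, 53,54 and WT, with 95% intervals from limma. Filled circles passed an adjusted p of 0.05 and open circles did not. Apaf1 passed in 25,26, 53,54 and WT, and Casp2 in 53,54 and WT. Apaf1 levels in 25,26 and WT chose the genes, so those Apaf1 calls are not independent of the choice.

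Casp2, whose product is activated on the PIDDosome downstream of centrosome and DNA damage signals, fell where Apaf1 rose in WT and 53,54. Its log2 level ran in Null from 8.98 to 9.55 with a median of 9.31, and stood in QM at 9.24, 9.41 and 9.15. In 25,26 it was 9.27, 9.02, 8.80, 8.75 and 8.78, and in 53,54 it was 8.45, 7.92 and 8.05. The LSL-WT arrays with Adeno-Cre had 8.75, 8.60 and 8.49, and the WT arrays with Adeno-Cre had 7.74, 8.12 and 8.02. No WT or 53,54 array reached the lowest Null or QM array, and 25,26 lay between them, overlapping Null.

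**Figure D3:**
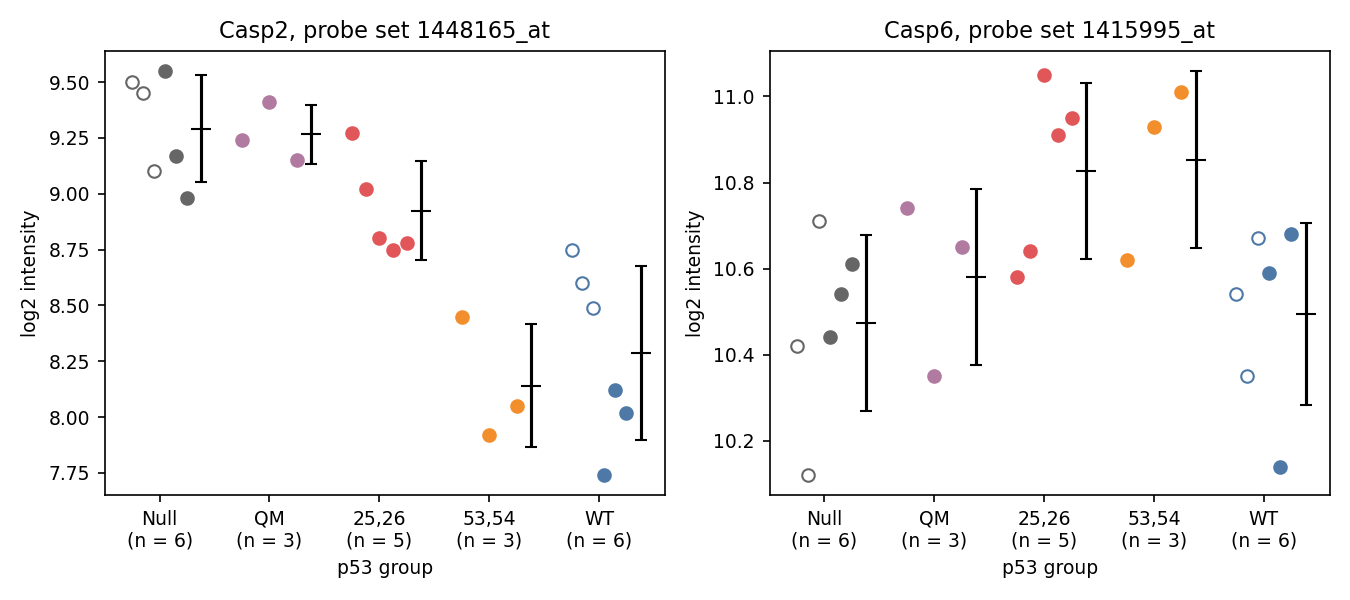
Log2 intensity of Casp2 (left) and of the tested Casp6 probe set (right) in each array, by p53 group, with group mean ± SD as black bars. Open circles are LSL-WT cells; for Casp2 the 53,54 and WT arrays lie below all Null arrays, and for Casp6 the groups overlap.

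Against Null, Casp2 fell by 1.01 ± 0.16 in WT (2.01-fold lower, adjusted p = 8.51e-05) and by 1.15 ± 0.19 in 53,54 (2.22-fold lower, adjusted p = 0.000189). In 25,26 the difference was -0.37 ± 0.16 (adjusted p = 0.319), and in QM it was -0.02 ± 0.19 with a 95% interval from -0.42 to 0.37 (adjusted p of 1). Casp2 was higher in QM than in WT by 0.98 ± 0.19 (adjusted p = 0.00174). It was the 1 member probe set of 11 called in that comparison, where 9.35% of all probe sets were called.

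The single-domain mutants differed in Casp2 and not detectably in Apaf1. Casp2 was higher in 25,26 than in 53,54 by 0.78 ± 0.20 (1.72-fold, adjusted p = 0.0315), with no overlap. It was the 1 of 11 member probe sets called, against 2.8% of all. The call ended without 25,26 replicate 1 (0.70, adjusted p = 0.0902), 53,54 replicate 3 (0.67, adjusted p = 0.261) or 53,54 replicate 4 (0.74, adjusted p = 0.0924). It ended too with the compared arrays alone (adjusted p = 0.0525) and without the arrays of title number 2 (0.92, adjusted p = 0.0582).

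In the parts of the WT comparison Casp2 fell by 0.74 ± 0.17 after Adeno-Cre in LSL-WT cells (adjusted p = 0.01) and by 1.28 ± 0.17 in WT against null cells (2.42-fold lower, adjusted p = 9.7e-05). The first call ended without Null replicate 1 (-0.66, adjusted p = 0.0557), without the arrays of title number 2 (-0.69, adjusted p = 0.0676) and with the compared arrays alone (adjusted p = 0.0562). With the block it had an adjusted p of 0.000437. The difference between the parts was -0.54 ± 0.25 (adjusted p = 0.461, or 0.0558 with the block).

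The Casp2 promoter window (RefSeq, GRCm38.p6, chr6:42264735-42265034, plus strand) is shown because Casp2 moved against Apaf1. Its 2 CCAAT boxes are in capitals, the first on the plus strand and the second, read ATTGG here, on the minus strand.
Casp2: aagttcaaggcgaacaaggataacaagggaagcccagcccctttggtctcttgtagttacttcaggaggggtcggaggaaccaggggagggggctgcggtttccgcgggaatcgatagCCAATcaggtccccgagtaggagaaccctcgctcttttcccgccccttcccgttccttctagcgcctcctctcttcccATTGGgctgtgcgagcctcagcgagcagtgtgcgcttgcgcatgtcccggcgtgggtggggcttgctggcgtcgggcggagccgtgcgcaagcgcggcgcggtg
They begin 132 and 54 bases before the start site, and 11.6% of all windows hold at least 2. No p53 half-site was matched. A match describes letters in the window and not a bound site.

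Counted over the tested members, 3 of 11 probe sets were called in WT minus Null, both of Apaf1 higher and Casp2 lower, against 16.9% of all probe sets. The count was 2 of 11 in 25,26 minus Null, against 2.7% of all, and 3 of 11 in 53,54 minus Null, against 14.6% of all. Both calls in 25,26 were of Apaf1, whose level in these arrays chose the genes. That count is therefore not independent of the choice. In QM minus Null the count was 0, against 0.0118% of all, or 4 probe sets by limma. At an unadjusted p under 0.05 there were 714 of the 33942 tested, a share below 0.05. The median difference of the 11 was -0.07, -0.08, -0.19 and -0.02 in these comparisons, with medians over all tested probe sets of -0.01, 0.00, -0.01 and 0.00. Outside Apaf1 and Casp2, the members' differences thus lay on both sides of 0 without a call. With the block the counts were 4 in WT (27.4% of all), 4 in 25,26 (10.1%) and 5 in 53,54 (26.1%), the additions being Casp6 and Casp12. With the Xist level as a covariate Apaf1 1452870_at still passed, at 0.81 in WT, 1.47 in 25,26 and 1.41 in 53,54 (adjusted p from 5.68e-06 to 0.000534), and so did Casp2 in WT and 53,54.

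Casp6, the effector caspase of the set, had on 1415995_at a mean of 10.47 ± 0.20 in Null (n = 6), 10.50 ± 0.21 in WT (n = 6) and 10.58 ± 0.20 in QM (n = 3). It had 10.83 ± 0.21 in 25,26 (n = 5) and 10.86 ± 0.20 in 53,54 (n = 3). The arrays of 25,26 read 10.58, 10.64, 11.05, 10.91 and 10.95, those of 53,54 read 10.62, 10.93 and 11.01, and Null ran from 10.12 to 10.71. All groups overlapped. The differences from Null were 0.35 ± 0.12 in 25,26 (adjusted p = 0.161, or 0.023 with the block) and 0.38 ± 0.14 in 53,54 (adjusted p = 0.0864, or 0.00603 with the block). The array of title number 2 was the lowest of its subgroup in 6 of 7 subgroups.

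Casp8, the initiator at death receptors, ranged over all arrays from 10.09 to 11. Its group means were 10.37 ± 0.20 in 53,54, 10.40 ± 0.26 in 25,26, 10.64 ± 0.30 in Null, 10.75 ± 0.22 in WT and 10.82 ± 0.26 in QM. The groups overlapped, and no comparison with Null passed (adjusted p from 0.387 to 1). The difference of 25,26 minus QM was -0.42 ± 0.18 (adjusted p = 0.578), and 53,54, the lowest mean, was not tested against QM, the highest.

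Casp9, the initiator that Apaf1 activates, differed least. The means of its 3 probe sets spanned 0.23, 0.10 and 0.19 across the 5 groups, against 1.39 and 1.37 for Apaf1. On 1457816_at, the probe set with the least spread, WT minus Null was 0.00 ± 0.07 with a 95% interval from -0.15 to 0.16 (adjusted p = 0.993). The same probe set gave 0.04 ± 0.08 in 25,26 (interval -0.13 to 0.20) and 0.06 ± 0.09 in 53,54 (interval -0.13 to 0.25). On 1437537_at the array of title number 2 was the highest in 7 of 7 subgroups. Over the 23 arrays 1437537_at correlated at -0.41 with 1457816_at and at 0.35 with 1426125_a_at, and the latter pair at -0.14. The Casp9 probe sets thus did not vary together, and how well each follows the transcript was not tested. In WT minus Null the upper bounds of the 3 Casp9 intervals were 0.21, 0.16 and 0.22, all below the lower bound of 0.46 for both Apaf1 probe sets.

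Casp12, an inflammatory-branch caspase linked to the endoplasmic reticulum, had the widest spread. On 1418981_at the Null arrays ran from 7.47 to 8.90 with a median of 8.55, and QM stood at 7.84, 7.47 and 8.12. The 25,26 arrays were at 7.57, 6.64, 7.92, 7.86 and 7.74, and the 53,54 arrays at 7.29, 7.40 and 7.76. WT ran from 6.12 to 8.59 with a median of 8. The means of the other 4 groups were lower than in Null, and every group overlapped Null. The differences from Null were -0.80 ± 0.34 in WT (adjusted p = 0.126), -0.90 ± 0.36 in 25,26 (adjusted p = 0.243), -0.96 ± 0.42 in 53,54 (adjusted p = 0.148) and -0.63 ± 0.42 in QM (adjusted p of 1).

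Casp12 passed in the first 3 of these with the block, at -0.78 (adjusted p = 0.0349), -1 (adjusted p = 0.0349) and -0.99 (adjusted p = 0.0288). The array of title number 2 was the lowest of its subgroup in 6 of 7 subgroups on 1418981_at and in 7 of 7 on 1449297_at. Without these arrays Casp12 1418981_at passed in 25,26 (-0.81, adjusted p = 0.0198) and 53,54 (-1.01, adjusted p = 0.00353). The other probe set, 1449297_at, had a WT minus Null difference of -0.82 ± 0.37 (adjusted p = 0.159) and passed without WT replicate 6 (-1.06, adjusted p = 0.0461). It passed with the block in the LSL-WT part (-0.95, adjusted p = 0.0395). The Casp12 probe sets, annotated with the same transcript, correlated at 0.96 over the arrays, and at 0.96 within subgroups.

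Casp4 differed with the mouse background in most subgroups that held both, and no comparison of p53 groups passed for it. Its Null arrays ran from 4.82 to 6.93 and its WT arrays from 4.75 to 6.97, and WT minus Null was -0.28 ± 0.34 (adjusted p = 0.701). Over all arrays its level was 5.28 ± 0.37 (SD, n = 14) on 129/Sv and 6.07 ± 0.64 (n = 9) on the mixed background. It is known that 129 mice carry an inactivating mutation in this gene. In the LSL-WT arrays with Adeno-Cre the 129/Sv array had 4.96 and the mixed arrays 5.79 and 6.97. With Adeno-Empty the 129/Sv array had 4.82 and the mixed arrays 6.41 and 6.93. In 5 of the 6 subgroups with both backgrounds all 129/Sv arrays were below all mixed ones, and 53,54 was the exception, with 5.47 against 5.59 and 5.08. Each of these subgroups had a single array on one of the backgrounds, so such a separation is weak evidence. In 25,26 the mixed array had 5.51 and the highest 129/Sv array 5.45. LSL-WT arrays of equal title number with Adeno-Cre and Adeno-Empty share their background. Their deviations correlated at 0.71 or above, so these subgroups are not independent of each other. The arrays of null cells with Adeno-Cre, all 129/Sv, had 6.17, 5.5 and 5.59, within the mixed range of 5.08 to 6.97. Levels were low: WT replicate 4, on 129/Sv, was at 4.75, below the filter level of 4.79.

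**Figure D4:**
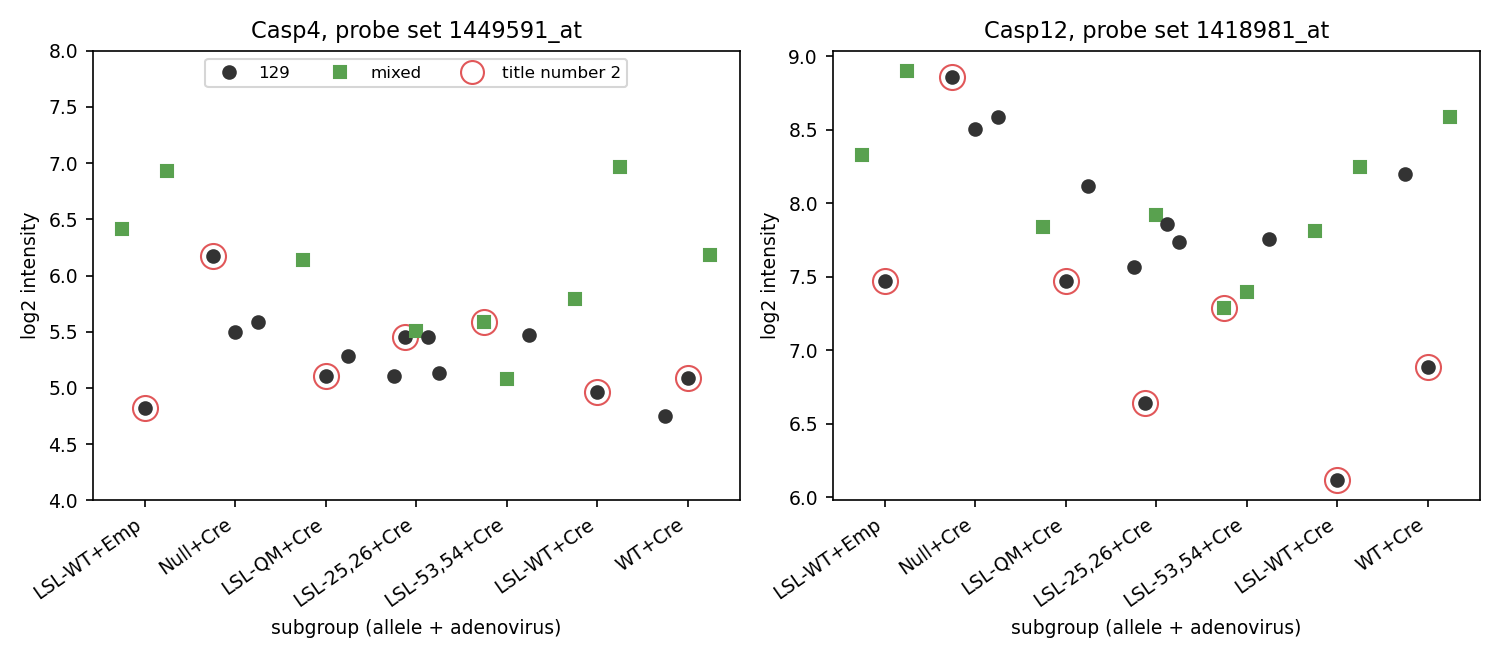
Log2 intensity of Casp4 (left) and Casp12 1418981_at (right) in each array, by allele and adenovirus. Black circles are 129/Sv and green squares mixed arrays, and a red ring marks title number 2; for Casp4 the 129/Sv arrays lie below the mixed ones in 5 of 6 subgroups with both.

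Within subgroups the background difference, 129/Sv minus mixed, was -0.91 ± 0.21 for Casp4 (1.87-fold lower, adjusted p = 0.0377). This was the 1 member probe set called, against 1.68% of all probe sets. Of the 7 arrays of title number 2, all but that of 53,54 were 129/Sv, and without these 7 the difference was -0.51 (adjusted p = 0.615). With the block it was -1.02 (adjusted p = 0.113). Leaving out a single array ended the call for 12 of the 23 arrays, at -0.91 to -0.72 and an adjusted p of 0.051 to 0.19. These were 25,26 replicate 5, QM replicates 1, 2 and 3, WT replicates 2 to 6 and Null replicates 1, 2 and 3. Background and title number can only in part be told apart here.

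Casp12 differed between backgrounds in the same direction, by -0.69 ± 0.25 (adjusted p = 0.215) and -0.66 ± 0.27 (adjusted p = 0.291). Casp1, Casp4 and Casp12 are consecutive protein-coding genes on chromosome 9, between Gria4 and Pdgfd in RefSeq order. After subgroup means were removed Casp4 correlated with both Casp12 probe sets at 0.67 over 23 arrays, which share the same libraries and title numbers. Apaf1 showed no such difference, at -0.07 ± 0.10 (adjusted p = 0.837) and 0.15 ± 0.12 (adjusted p = 0.669).

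The other genes of the pathway were taken from fixed lists, with 1 probe set per gene, and their counts stand beside 16.9% of all probe sets called in WT minus Null and 2.7% in 25,26 minus Null. Of 9 tested genes of mitochondrial release and the apoptosome, 3 rose in WT against Null and 1 fell. Pmaip1, which encodes the BH3-only protein Noxa, rose by 3.35 ± 0.38 and Bbc3, which encodes Puma, by 0.75 ± 0.18. Bid, the BH3-only substrate of caspase-8, rose by 0.47 ± 0.15, and the mitochondrial protease gene Htra2 was at -0.38 ± 0.10. In 25,26 none of these was higher, and Htra2 was the 1 lower gene at -0.56 ± 0.11 (adjusted p = 0.00386). In 25,26, where Apaf1 rose, Pmaip1 differed from Null by 1.48 ± 0.40 (adjusted p = 0.0507) and Bbc3 by 0.15 ± 0.18 (adjusted p = 0.827). The medians of the list were -0.02 in WT and 0.01 in 25,26.

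Of 8 tested death-receptor and PIDDosome genes, 4 were higher and 1 lower in WT. Fas, a death receptor upstream of Casp8, rose by 1.56 ± 0.21, and Pidd1, the scaffold that activates caspase-2, by 1.39 ± 0.18. The death receptor gene Tnfrsf10b rose by 1.03 ± 0.19 and the adaptor gene Tradd by 0.54 ± 0.12, while Traf2 was lower. In WT, Pidd1 thus rose (adjusted p = 1.49e-05) where Casp2 fell. In 25,26 Traf2 was the only one called, at -0.40 ± 0.09. The medians of the list were 0.36 and 0.11.

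Among 7 tested inhibitors of caspases, Cflar, the decoy relative of Casp8, was higher in WT by 0.50 ± 0.13 and Birc5, the mitotic inhibitor survivin, was lower at -1.41 ± 0.28. None was called in 25,26, and the medians were -0.07 and -0.03. Of 7 tested inflammasome and pyroptosis genes 1 was called in WT, a count near the 16.9% of all probe sets: Gsdme, a gasdermin cleaved by a caspase, at -0.69 ± 0.21. None was called in 25,26 (medians -0.10 and 0.03). From the list of other caspases and partners, Casp8ap2, a caspase-8 associated protein, was at -0.93 ± 0.16 in WT (adjusted p = 0.000272), and it and Casp14 were not called in 25,26 (medians -0.45 and -0.14). With the block, which called 10.1% of all probe sets in 25,26 minus Null, the mitochondrial list went from 1 to 3, the inhibitor, inflammasome and other-caspase lists from 0 to 1 each, and the death-receptor list stayed at 1. In WT, where the block called 27.4% of all, the inhibitors went from 2 to 4 and the inflammasome genes from 1 to 3.

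Of 10 tested genes on the list of caspase substrates, 5 were higher and 2 lower in WT, with a median of 0.21. The list also holds Dffb, which is released by the cleavage and is not itself counted as cleaved. Gsn, the actin-severing gelsolin, rose by 0.97 ± 0.10 and Dffb, the nuclease that caspase cleavage sets free to cut DNA, by 0.85 ± 0.16. Parp1, the DNA-break sensor, was at -0.84 ± 0.11 and Lmnb1, a nuclear lamin, at -0.83 ± 0.23. In 25,26 Dffb rose by 1.97 ± 0.17 (adjusted p = 1.49e-07) and Gsn by 0.45 ± 0.10 (adjusted p = 0.0203), with a list median of 0.06 and 5 genes called with the block.

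Dffb was also the gene whose level was most like that of Apaf1 1452870_at over the 23 arrays, of 15259 genes compared. Its correlation was 0.93, followed by Prrc2b (0.92), Tctn1 (0.92), Ppm1a (0.91) and Dennd2c (0.91). These points share arrays, title numbers and group differences, and after subgroup means were removed the correlations were 0.13, 0.60, 0.17, 0.42 and 0.50. Dffb ran from 6.84 to 7.31 in Null, 7.32 to 7.65 in QM, 7.33 to 8.75 in WT, 8.94 to 9.38 in 25,26 and 9.11 to 9.21 in 53,54. Its 25,26 and 53,54 arrays lay above every WT array, as on Apaf1 1452870_at. Dffb was higher in 53,54 than in WT by 1.18 ± 0.19, and in 25,26 than in QM by 1.64 ± 0.20, given without a test since likeness to Apaf1 over these arrays named it.

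**Figure D5:**
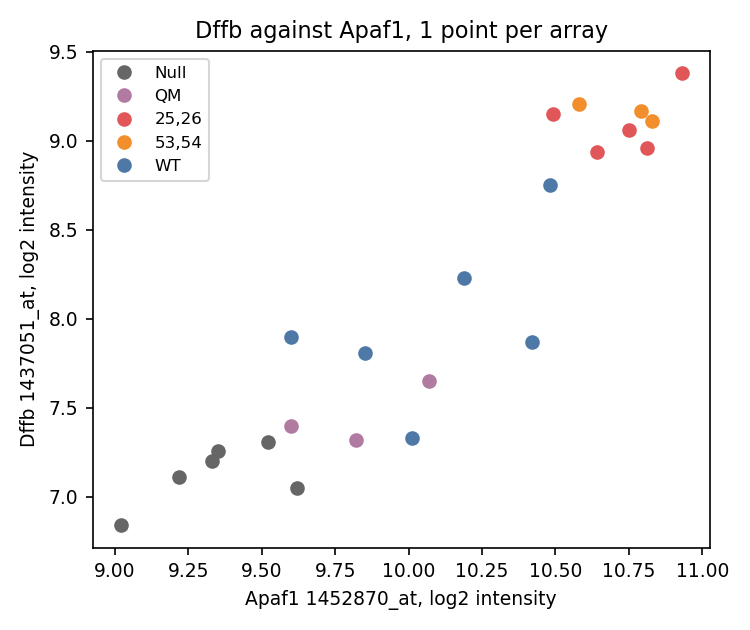
Log2 intensity of Dffb against that of Apaf1 1452870_at, 1 point per array, coloured by p53 group. The arrays of 25,26 and 53,54 form the upper right, with Dffb at 8.94 or above, and the Null arrays the lower left; the correlation over the 23 arrays is 0.93.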

How the data were processed

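RNA of 23 samples was measured on Affymetrix oligonucleotide arrays, per the labels. The deposited table holds the intensity of each probe set on a linear scale, made with RMA per the submitters' processing notes, and its version is not given in the sources used here. These were taken to log2, and 64 control probe sets were left out. Gene symbols came from the platform annotation, and probe sets with several symbols (932) or none (9160) were not named. A 5-group model, and a 7-subgroup model for the wild-type parts and the background (129/Sv minus mixed), used all arrays in limma (3.58.1, R 4.3.3). Its tests were two-sided, and the code was tested on simulated data. Named were every member probe set, up to 4 genes per list in WT minus Null and 2 in 25,26 minus Null, and the 5 genes most like Apaf1. Members and lists were chosen with earlier results of these data known. Alternatives covered filters, normalization, strain, Xist, variance, array weights, the arrays used and each array left out. Title numbers paired the arrays: in every comparison with 3 or more same-number pairs each pair of deviations from subgroup means correlated above 0.1 (medians 0.39 to 0.72). WT Cre against Null Cre had only 2 pairs (0.21 at the lowest). Array 25,26 replicate 5 has a number of its own and adds nothing under the block. Promoters came from RefSeq (GRCm38.p6).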

Additional observations from a re-analysis of the deposited data

Results flagged for a closer look

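Dixon's ratio was taken for 39 combinations of a member probe set and a group, in Null, 25,26 and WT alone. QM and 53,54, with 3 arrays each, were not examined. In 2 of the 39, which share the same arrays, 1 array stood apart from the others of its group, and chance alone gives about 1 in 20. Casp12 1418981_at was at 6.64 in 25,26 replicate 2, with the other arrays of the group between 7.57 and 7.92. Casp6 1458715_at, which was not tested for its low level, was at 4.70 in WT replicate 2, with the others between 4.38 and 4.46. Both arrays carry title number 2.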

How the results depend on the processing

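With 1 probe set per gene 1 member passed in 25,26 minus Null, since that setting keeps only 1 Apaf1 probe set. With the replicate number as a block the members called were 4 in 25,26 minus Null (10.1% of all probe sets), 5 in 53,54 minus Null (26.1%) and 2 in 25,26 minus QM (2.14%). They were 3 in WT Cre minus Null Cre (24.9%), 2 for the difference between the wild-type parts (3.97%) and 0 for the background (1.06%). Array weights called 5 in 53,54 minus Null (9377 of all 33942 probe sets tested), 1 in 53,54 minus WT (845 of all) and 4 for the background (3230 of all). They also called 2 in WT Cre minus Null Cre. A count given here without a number for all probe sets is not a result about the members. The Apaf1 difference between 25,26 and WT was 0.36 against LSL-WT Cre and 0.90 against WT Cre. WT Cre alone as WT called 2 in 53,54 minus WT, and LSL-WT Cre alone 2 in QM minus WT. The compared arrays alone called 0 in 25,26 minus 53,54, and median centring 2 in WT Cre minus Null Cre. A mean above the median left 0 for the background, but this filter took out Casp4 (mean 5.59) before any test. Without the arrays of title number 2, a choice made after seeing the data, the counts were 0 in 25,26 minus QM, 0 in 25,26 minus 53,54, 2 in WT Cre minus Null Cre and 0 for the background. Leaving out 1 array gave 3 to 4 in WT minus Null, 2 in 25,26 minus Null, 3 in 53,54 minus Null, 0 in QM minus Null, 0 to 1 in 53,54 minus WT, 1 in QM minus WT, 0 to 1 in 25,26 minus QM and in 25,26 minus 53,54, 2 to 3 in the LSL-WT part, 1 to 2 in WT Cre minus Null Cre, 0 for the difference between the parts, 0 to 1 for the background and an Apaf1 difference of 0.53 to 0.71 between 25,26 and WT. No followed result changed sign, and the cause of the moves was not tested.

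Over all probe sets the counts ran from 3465 to 9312 in WT minus Null (5746 in the fit reported), 446 to 3429 in 25,26 minus Null (917), 2986 to 9377 in 53,54 minus Null (4956), 1 to 22 in QM minus Null (4) and 2 to 845 in 53,54 minus WT (66). They ran from 1699 to 6882 in QM minus WT (3174), 62 to 728 in 25,26 minus QM (129), 224 to 6163 in 25,26 minus 53,54 (950), 904 to 7708 in the LSL-WT part (2813), 1497 to 8447 in WT Cre minus Null Cre (4236), 1 to 1349 for the difference of the parts (7) and 57 to 3230 for the background (570). The lowest counts for WT minus Null, 53,54 minus Null and the difference of the parts came with 1 probe set per gene. That fit tested fewer probe sets, so its counts are not comparable with the others. Casp1 and Casp6 1458715_at had no level above the filter, so no change of theirs was detectable.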
